A study of Mus musculus with 52 samples.

Results

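The genes examined here were 10 transport genes of the kidney collecting duct, chosen by symbol from the 24421 gene symbols counted in every library: the water channels Aqp1, Aqp2, Aqp3 and Aqp4, the vasopressin receptor Avpr2, the sodium channel subunits Scnn1a, Scnn1b and Scnn1g, the urea transporter Slc14a2, and Atp1b1, a beta subunit of the sodium pump. All 10 symbols were found. RNA sequencing was performed on clones of mouse Cilia-APEX-IMCD3 cells, an immortalised line derived from the inner medullary collecting duct that carries a peroxidase reporter directed to the cilium. CRISPR base editing had been used to give clones homozygous missense alleles of Wdr34 or Wdr60, which encode the intermediate chains of the ciliary motor dynein-2. Controls had received the editor and a guide vector without target sequence, and all clones were grown from single sorted cells. The 52 libraries formed 13 sets of 4 technical replicate libraries. Each set is a clone in a given state and is called a clone below. The labels do not pair the sets of the ciliated and nonciliated cells. The same clone may therefore stand in both states, as may hold for Wdr60. Fits that join the states treat all sets as independent clones, which was not tested. Ciliated cells, which had been starved of serum, comprised 3 mutant clones (Wdr34 clone 1, Wdr34 clone 3 and Wdr60) and 4 controls, namely D8, H12, A4 and G7. Nonciliated cells comprised 2 mutant clones (Wdr34 and Wdr60) and 4 control clones (AB, 1, 2 and 3). The labels do not give the allele of either ciliated Wdr34 clone. In the study, 1 of its 2 Wdr34 alleles, the glycine-to-serine change, was accompanied by an unintended heterozygous missense change and was obtained only after the nonciliated cells had been sequenced. Ciliation state, serum and time of sequencing therefore cannot be told apart, and each genotype rests on very few clones.

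The collecting duct sets the final water and salt content of urine. In its principal cells vasopressin binds the receptor AVPR2, cAMP rises, and the water channel AQP2 moves to the apical membrane, while AQP3 and AQP4 let the water leave on the basolateral side. Sodium enters through the epithelial sodium channel ENaC, built from alpha, beta and gamma subunits encoded by Scnn1a, Scnn1b and Scnn1g, under the control of aldosterone. The sodium pump, with a catalytic alpha and a beta subunit, expels it. In the inner medulla, products of Slc14a2 carry urea under the control of vasopressin. AQP1 is the water channel of the proximal tubule, the thin descending limb and the vasa recta and is not a principal cell protein.

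Library totals ranged from 14816218 to 28084979 counts, so that 3 counts in the summed libraries of a clone, taken here as the limit of detection, corresponded to 0.0388 to 0.0463 CPM (counts scaled to a common library size). Levels are TMM-scaled CPM, given as mean and SD over the 4 libraries of a clone. These SDs describe technical spread only. The ciliated control G7 and the nonciliated control 2 stood apart from the other clones in epithelial genes. Cdh1 (E-cadherin) was at 14.7 CPM in G7 and 4.27 CPM in control 2, against 241 to 649 CPM in the other clones. Wdr34 clone 3 had 300.0 CPM of Cdh1, below every ciliated clone except G7 but within the range of the nonciliated clones. It stood apart in other epithelial genes, with 35.5 CPM of Grhl2 and a summed collecting duct marker level of 1697 CPM, against 73.9 CPM or more and 2794 CPM or more in the remaining 10 clones. Several results that turn on these clones are given with and without them. Wdr34 itself was at 21.6 to 49.7 CPM and Wdr60 at 20.2 to 30.6 CPM in the 13 clones, and a missense allele cannot be checked from gene counts.

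The table of RefSeq promoters (GRCm38.p6) held 7 of the 10 transport genes. The 250 bases before the start of 3 of them are shown because these genes mark the extremes of the data: Atp1b1 was abundant in every clone, Aqp1 varied most between clones among the genes counted in all 52 libraries, and Aqp2 was all but missing. Capitals mark CG dinucleotides. Atp1b1 lies on the minus strand (chr1:164458356-164458605), Aqp1 on the plus strand (chr6:55336049-55336298) and Aqp2 on the plus strand (chr15:99578806-99579055).
Atp1b1: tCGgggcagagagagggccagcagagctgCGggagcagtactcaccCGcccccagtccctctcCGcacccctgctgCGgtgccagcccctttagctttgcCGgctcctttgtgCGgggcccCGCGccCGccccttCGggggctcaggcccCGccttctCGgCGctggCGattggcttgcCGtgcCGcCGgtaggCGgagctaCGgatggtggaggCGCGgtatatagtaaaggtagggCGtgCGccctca
Aqp1: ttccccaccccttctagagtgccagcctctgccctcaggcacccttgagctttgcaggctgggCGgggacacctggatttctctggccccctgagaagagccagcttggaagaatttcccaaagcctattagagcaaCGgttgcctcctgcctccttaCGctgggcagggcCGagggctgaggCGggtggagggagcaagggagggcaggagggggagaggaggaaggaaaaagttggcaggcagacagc
Aqp2: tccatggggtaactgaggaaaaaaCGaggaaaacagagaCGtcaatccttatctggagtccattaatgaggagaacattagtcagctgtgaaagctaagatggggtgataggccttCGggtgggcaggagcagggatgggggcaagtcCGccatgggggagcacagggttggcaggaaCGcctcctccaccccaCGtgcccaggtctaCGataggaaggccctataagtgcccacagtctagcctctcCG
The Atp1b1 stretch held 24 CG dinucleotides, that of Aqp2 held 8 and that of Aqp1 held 5, beside a median of 6 over 32851 promoters of the same length. At least as many CG dinucleotides as in Atp1b1 were found in 12% of all promoters. Of the other 4, Scnn1g held 16, Aqp3 held 14, Scnn1b held 7 and Avpr2 held 0. The letters TGACG, the core of the cAMP response element, were searched on both strands and occurred only in Aqp2 among the 7, and in 17.8% of all promoters. They include a CG dinucleotide, counted above. The letters GGGCGG, also searched on both strands and also holding a CG, occurred in 5 of the 7 (Aqp1, Aqp3, Scnn1b, Scnn1g and Atp1b1) and in 32.7% of all promoters. TATAAA, likewise searched on both strands, was found in Aqp3, in Avpr2 (on the opposite strand) and in 12.4% of all promoters. These are matches of letters and not binding sites.

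Of the 10 transport genes, only Atp1b1 reached 1 CPM in all 13 clones. Aqp1, Aqp3, Scnn1a, Scnn1g and Slc14a2 reached it in 8, 1, 11, 3 and 1 clones respectively. The other 4, Aqp2, Aqp4, Avpr2 and Scnn1b, stayed below 1 CPM in every clone. A clone had between 1 (nonciliated control AB) and 4 transport genes at 1 CPM or more. Genes can be compared with each other only per length. On that scale, in RPKM, reads per kilobase scaled by library size (with GENCODE exon unions), the median over the clones was 69.4 for Atp1b1, 0.849 for Aqp1, 0.515 for Scnn1a, 0.128 for Aqp3 and 0.0627 for Scnn1g. In bulk RNA, fewer cells that express a gene and less RNA per cell cannot be told apart.

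The markers that this line kept or lacked frame these levels. Of 16 genes listed as collecting duct markers, 10 were at 1 CPM or more in every clone, among them the keratins Krt8, Krt18 and Krt19, Cdh1 and Epcam of epithelial junctions, and the transcription factors Pax2, Pax8, Tfcp2l1 and Grhl2. Gata2 and Gata3 passed 1 CPM in some clones. Elf5, Emx1, Hoxd10 and Calb1 were below 1 CPM in all, and Calb1 had no count in any library. Intercalated cell markers were represented by 2 or 3 of 11 genes at 1 CPM (Atp6v0a4 and Car2 in every clone), while Foxi1, their defining transcription factor, and Kit had no count. Proximal tubule markers were represented by Lrp2 and Cubn only, of 10, with Slc34a1, Slc22a6 and Miox at 0 counts. Markers of thick limb and distal tubule reached 1 CPM for 1 or 2 of 7 genes, those of endothelium for 0 to 2 of 8, those of fibroblasts for 1 or 2 of 7 and those of leukocytes for 1 or 2 of 6. The summed CPM ranged from 1004 to 4779 for collecting duct, 13.8 to 50.04 for intercalated cell, 16.2 to 459 for proximal tubule, 4.0 to 30.9 for thick limb and distal tubule, 1.67 to 13.4 for endothelium, 1.38 to 31.6 for fibroblast and 18.4 to 303 for leukocyte markers. The highest proximal tubule sum came from Lrp2, at 455 CPM in G7, followed by 275 CPM in nonciliated control 2 and at most 95.2 CPM elsewhere. The highest values of the last 2 lists came from Dcn, at 29.1 CPM in Wdr34 clone 3, and from Csf1r, at 302 CPM in control G7. Pecam1, Cdh5, Itgam and Cd3e stayed below 0.12 CPM. Of the same lists, Flt1 was at 0.739 to 12.7 CPM and Cd68 at 0.766 to 4.51 CPM, while Plvap reached 1.39 CPM and Ptprc 0.895 CPM.

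**Figure D1:**
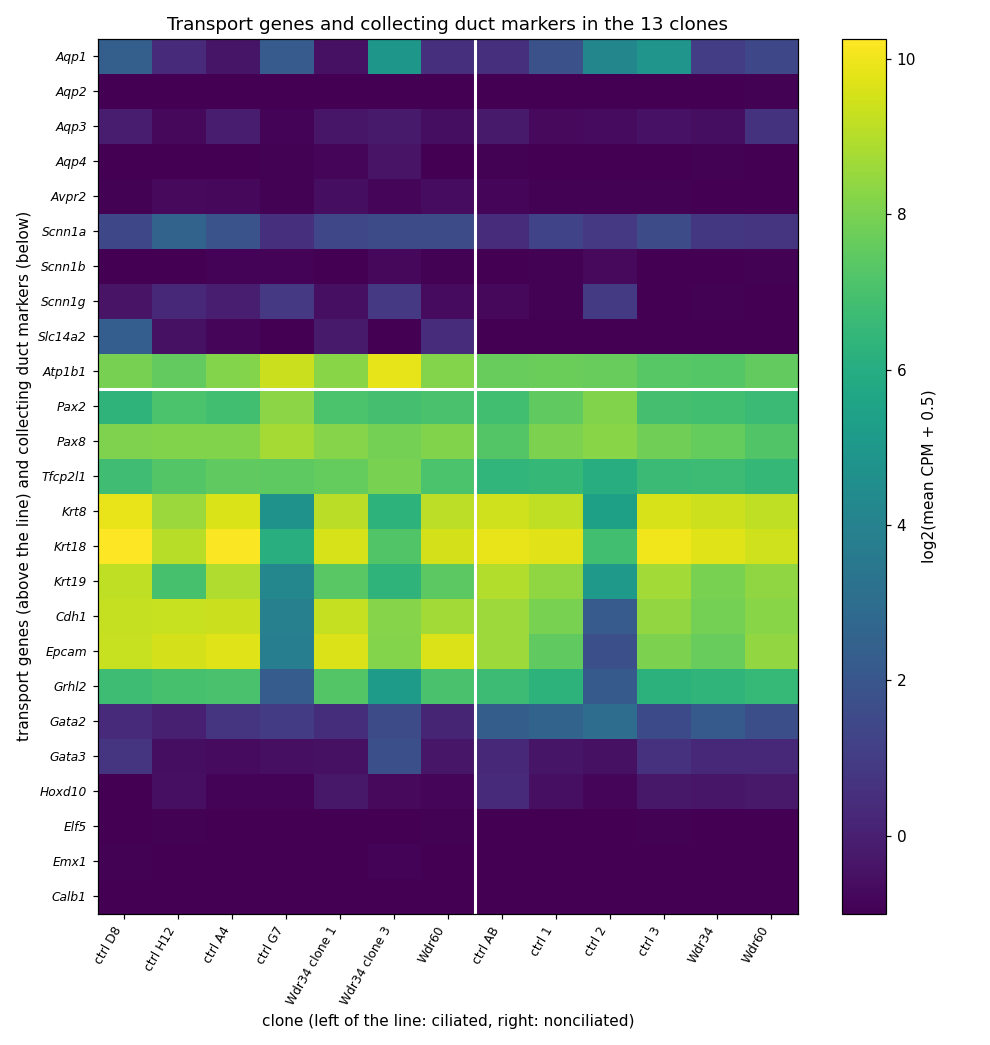
Mean level of each transport gene (rows above the white line) and of 15 collecting duct markers (rows below) in the 13 clones (columns, ciliated left and nonciliated right of the line), as log2(mean CPM + 0.5) on the colour scale. Atp1b1 was bright in every column, Aqp2, Aqp4, Avpr2 and Scnn1b were dark throughout, and the keratins, Cdh1, Epcam and Grhl2 were dimmer in ciliated control G7 and nonciliated control 2.

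Atp1b1 encodes the beta subunit that takes the sodium pump to the plasma membrane (chr1:164437099-164458355, minus strand). It was the most abundant transport gene in every clone. In ciliated controls it was at 247 ± 17.7 CPM in D8, 187 ± 15.3 CPM in H12, 288 ± 11.2 CPM in A4 and 654 ± 30.6 CPM in G7 (SD, n = 4 libraries). In ciliated mutants it was at 309 ± 13.6 CPM in Wdr34 clone 1, 904 ± 34.2 CPM in Wdr34 clone 3 and 287 ± 29.5 CPM in Wdr60. Nonciliated clones were closer together and, apart from H12, below every ciliated clone, with 202 ± 14.4 CPM in control AB, 214 ± 3.08 CPM in control 1, 202 ± 5.59 CPM in control 2, 160 ± 7.0 CPM in control 3, 156 ± 5.99 CPM in Wdr34 and 188 ± 7.85 CPM in Wdr60. The highest ciliated clone exceeded the lowest 4.83 times, and the highest nonciliated clone exceeded the lowest 1.37 times. Wdr34 clone 3 and G7 stood above all others. The ciliated clones Wdr60 and A4, and among nonciliated clones AB and control 2, lay within their spread. The SD between ciliated clones was 0.81 on the log2 scale, against 0.09 between the libraries of a clone. Atp1b1 shares 575 exonic bases with Nme7 on the opposite strand, which was at 22.2 to 39.5 CPM. The strand setting of the counting is not given in the sources used here, so their reads may not be fully separated.

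The other beta subunits are shown beside Atp1b1 in the plot of sodium pump genes. Atp1b3, an alternative beta subunit, was at 90.9 to 203 CPM. Atp1b2, a beta subunit best known from glia and neurons, was at 1.16 to 8.36 CPM in ciliated clones and at 0.184 to 0.727 CPM in nonciliated clones. Fxyd2 and Fxyd4, small pump regulators of the tubule and the collecting duct, stayed at or below 0.37 CPM.

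**Figure D2:**
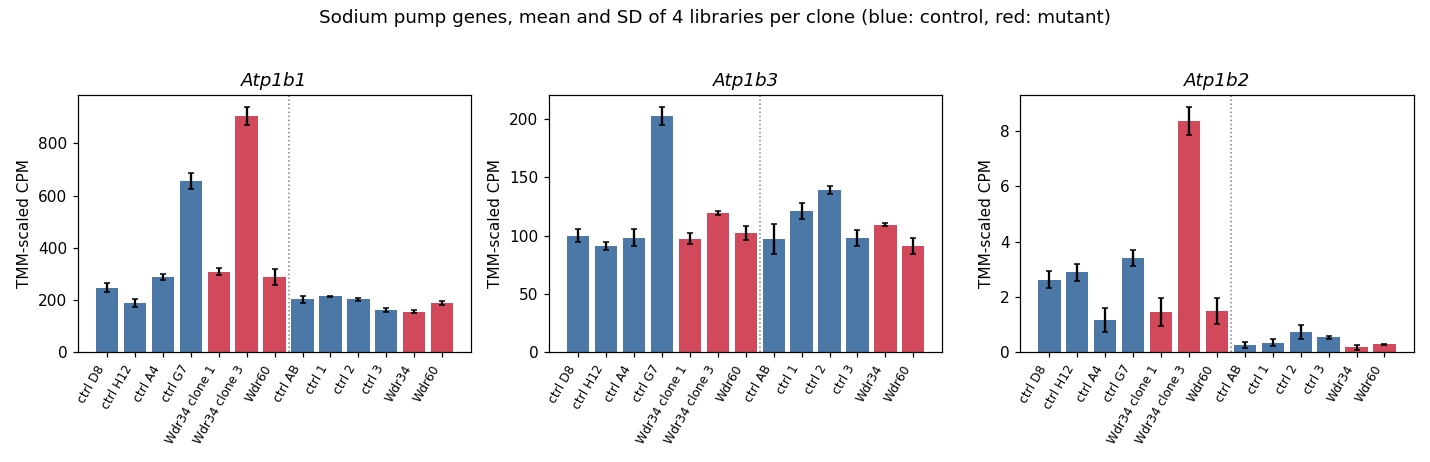
TMM-scaled CPM (vertical axes from 0) of 3 sodium pump genes in each clone, as the mean (bar) and SD (whisker) of 4 libraries, with controls in blue and mutants in red and ciliated clones left of the dotted line. Atp1b1 was highest in Wdr34 clone 3 and ciliated control G7, and every ciliated clone had more Atp1b2 than every nonciliated clone.

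AQP2, the vasopressin-regulated channel that defines principal cells, was all but missing at the RNA level. Aqp2 had 1 count in 1 of 52 libraries, from nonciliated Wdr60, and 0 in the other 12 clones. Aqp4 had 26 counts in 9 libraries. Of these, 18 were in Wdr34 clone 3 (0.244 ± 0.139 CPM, SD, n = 4 libraries), 4 in Wdr34 clone 1 and at most 2 in any other clone. Aqp3, the basolateral channel that also passes glycerol, had at least 3 counts in every clone, 275 in all, but stayed low. It was at 0.447 CPM in D8, 0.0915 CPM in H12, 0.419 CPM in A4 and 0.0397 CPM in G7. It was at 0.303 CPM in Wdr34 clone 1, 0.388 CPM in Wdr34 clone 3 and 0.177 CPM in ciliated Wdr60. The nonciliated controls AB, 1, 2 and 3 had 0.369, 0.106, 0.137 and 0.235 CPM of Aqp3, and nonciliated Wdr34 had 0.170 CPM. Nonciliated Wdr60 was the exception, at 1.06 ± 0.348 CPM (SD, n = 4 libraries), above the other 12 clones. Its 4 libraries held 10, 26, 18 and 17 counts. The lowest of them, at 0.627 CPM, was below the highest libraries of D8, A4 and Wdr34 clone 3.

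Aqp1 (chr6:55336299-55348555, plus strand) had the highest median level per length of the water channels Aqp1 to Aqp4, although Aqp3 exceeded it in A4 (0.229 against 0.102 RPKM) and in Wdr34 clone 1 (0.166 against 0.0781 RPKM). Aqp1 differed between clones more than any other transport gene counted in all 52 libraries. In ciliated controls it was at 4.82 ± 1.04 CPM in D8, 0.794 ± 0.440 CPM in H12, 0.267 ± 0.189 CPM in A4 and 4.25 ± 0.721 CPM in G7 (SD, n = 4 libraries). In ciliated mutants it was at 0.205 ± 0.115 CPM in Wdr34 clone 1, 30.2 ± 1.35 CPM in Wdr34 clone 3 and 0.950 ± 0.589 CPM in Wdr60. The lowest and the highest of all 13 clones were thus both ciliated Wdr34 mutants, 147 times apart. Nonciliated controls had 0.926 ± 0.464 CPM in AB, 2.95 ± 0.392 CPM in control 1, 17.3 ± 2.03 CPM in control 2 and 28.6 ± 1.90 CPM in control 3. Nonciliated Wdr34 had 1.57 ± 0.292 CPM and Wdr60 had 2.23 ± 0.184 CPM, both within the range of the controls. The SD between clones was 1.97 (ciliated) and 1.78 (nonciliated) on the log2 scale, which was 4.97 and 7.85 times the SD between libraries of a clone. D8 and G7 lay within their spread, as did H12 and Wdr60 of the ciliated clones. Of 8 other aquaporin genes, 2 (Aqp8 and Aqp12) had no count in any library, and Aqp5, Aqp11 and Mip passed 1 CPM in some clones without exceeding 2.62 CPM.

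Of the 3 ENaC subunit genes, Scnn1a, the alpha subunit required for channel function, was detected in all 52 libraries. It was at 2.23 ± 0.569 CPM in D8, 5.50 ± 0.544 CPM in H12, 3.20 ± 1.19 CPM in A4 and 0.960 ± 0.204 CPM in G7 (SD, n = 4 libraries). The ciliated mutants lay close together inside this range, at 2.13 ± 0.120 CPM in Wdr34 clone 1, 2.59 ± 0.510 CPM in Wdr34 clone 3 and 2.45 ± 0.312 CPM in Wdr60. Nonciliated controls had 0.839 ± 0.235 CPM in AB, 1.88 ± 0.528 CPM in control 1, 1.31 ± 0.359 CPM in control 2 and 2.47 ± 0.394 CPM in control 3. Nonciliated Wdr34 had 1.25 ± 0.336 CPM and Wdr60 had 1.16 ± 0.194 CPM. H12 stood above every other clone, and AB and G7, the lowest clones, lay within their spread. Scnn1b, the beta subunit, had 26 counts in all 52 libraries and at most 8 in a clone. Counts of 3 or more for all 3 genes were found in A4, G7, Wdr34 clone 3 and nonciliated control 2.

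Scnn1g, the gamma subunit (chr7:121734420-121768482, plus strand), was highest in G7 and nonciliated control 2, the clones lowest in Cdh1 and Epcam, and in Wdr34 clone 3, in which both lay within the range of the remaining clones. It was at 1.35 ± 0.354 CPM in G7, 1.31 ± 0.522 CPM in Wdr34 clone 3 and 1.37 ± 0.589 CPM in nonciliated control 2 (SD, n = 4 libraries), which lay within their spread. The other ciliated controls had 0.249 CPM (D8), 0.709 CPM (H12) and 0.457 CPM (A4), and the other ciliated mutants had 0.187 CPM (Wdr34 clone 1) and 0.119 CPM (Wdr60). Outside control 2, nonciliated clones were at or near 0, with 7 counts in AB, 1 in control 1, 0 in control 3, 1 in Wdr34 and 0 in Wdr60, against 102 in control 2. The highest Scnn1b counts, 8 and 7, were also in control 2 and in Wdr34 clone 3. Krt8, the keratin of simple epithelia, was at 41.5 CPM in control 2, 26.8 CPM in G7 and 76.5 CPM in Wdr34 clone 3, against 375 to 939 CPM elsewhere. Lrp2 was also highest in G7 and control 2, as given above. The part of epithelial state or of another segment's markers in the level of Scnn1g was not tested.

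Slc14a2 (on chromosome 18), the urea transporter gene of the inner medulla, was found almost only in ciliated cells, and mostly in 1 control. D8 had 59, 62, 73 and 99 counts in its 4 libraries (4.57 ± 1.15 CPM, SD, n = 4 libraries). Among the other ciliated clones, Wdr60 had 63 counts (0.827 ± 0.317 CPM), Wdr34 clone 1 had 27 (0.387 ± 0.216 CPM), H12 had 16 (0.211 ± 0.136 CPM), A4 had 4 (0.0588 ± 0.0687 CPM), and G7 and Wdr34 clone 3 had 0. The 6 nonciliated clones had 1 count together, in Wdr60. D8 thus held 75.5% of the summed CPM of the ciliated clones. Avpr2, the receptor through which vasopressin acts on Aqp2 and Slc14a2 products, had 54 counts in 22 of 52 libraries and never exceeded 6 in a library. Ciliated clones had 2 to 11 counts each, nonciliated controls had 5, 2, 2 and 2, and both nonciliated mutants had 0. The Avpr2 and Arhgap4 genes share 2347 exonic bases on opposite strands, so some of these few counts may belong to Arhgap4, itself at 0.143 to 0.656 CPM.

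**Figure D3:**
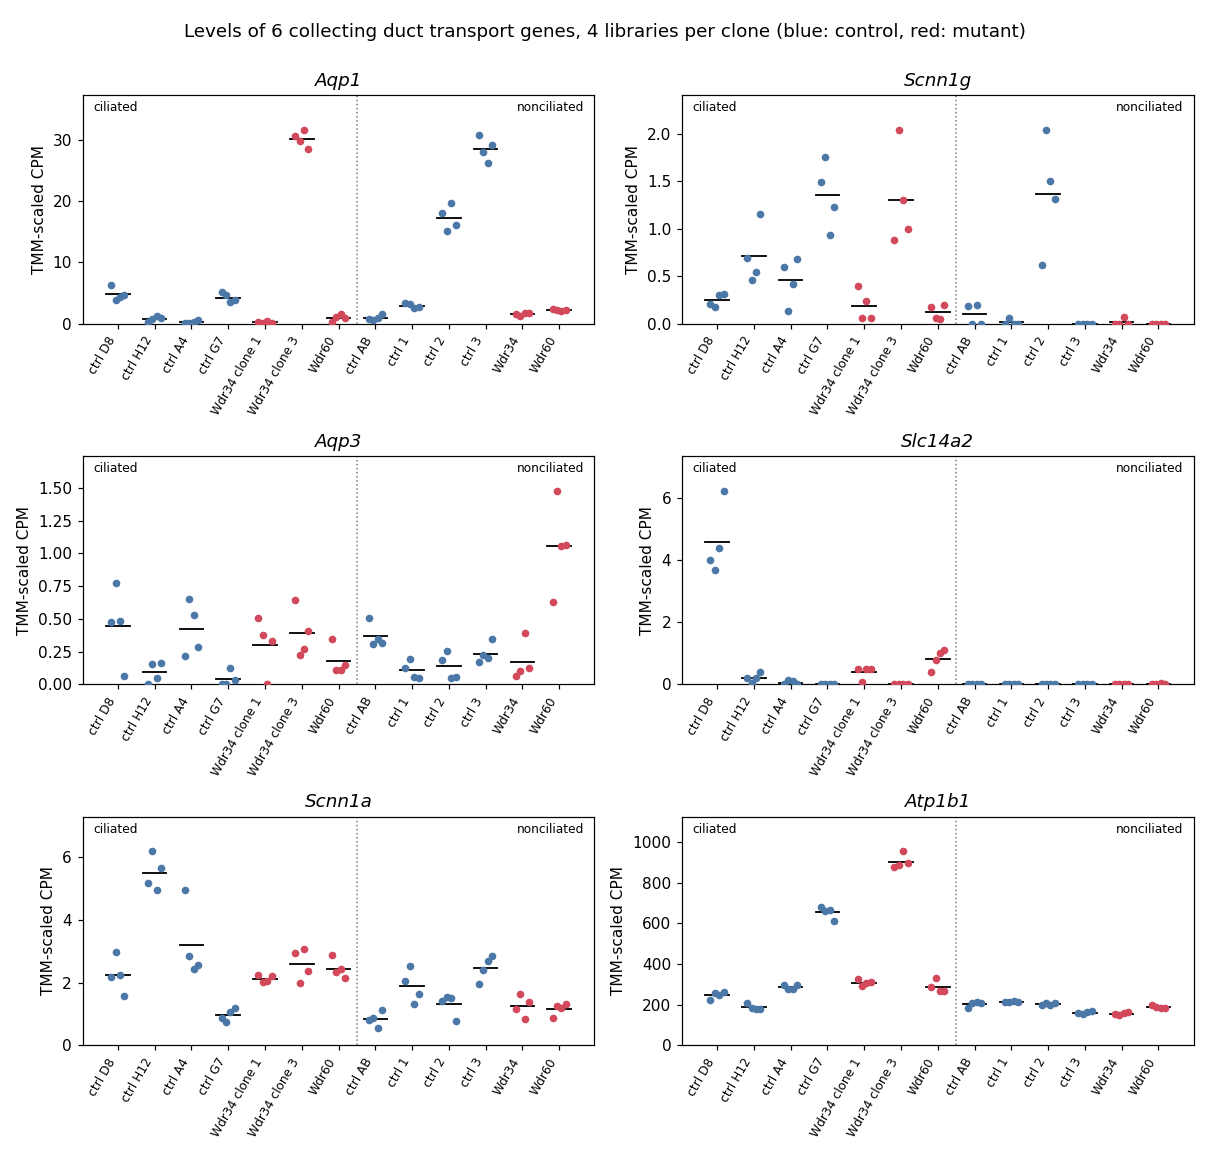
TMM-scaled CPM (vertical axes from 0) of 6 transport genes in the 4 libraries (points) of each clone, with a line at the clone mean, controls in blue and mutants in red. On these linear axes, libraries of a clone lay close together for Aqp1 and Atp1b1 beside the spread between clones. In clones with little Aqp1 the libraries differed more in proportion, as in ciliated Wdr60 from 0.173 to 1.59 CPM. Ciliated clones of the same group spread widely for both genes, and nonciliated ones only for Aqp1 in controls. Slc14a2 was high in ciliated control D8 only.

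The design asks whether the mutants differed from controls in ciliated cells. None of the 6 transport genes that passed the filter on low counts (Aqp1, Aqp3, Scnn1a, Scnn1g, Slc14a2 and Atp1b1) changed in 3 mutant against 4 control clones (edgeR quasi-likelihood test on clone sums, Benjamini-Hochberg over 13243 genes, 0 with an unadjusted p under 0.05). Of all genes tested 0% were called (0 genes, with 148 or 1.12% at an unadjusted p under 0.05, and 3 called by DESeq2 on clone sums). Aqp1 had a log2 fold change of 2.06 ± 1.56 (SE, 95% interval -1.58 to 5.70, edgeR adjusted p = 0.9998) that rested on Wdr34 clone 3, since it was -2.11 without that clone. Atp1b1 had 0.55 ± 0.55 (interval -0.73 to 1.82, edgeR adjusted p = 0.9998), and -0.20 without Wdr34 clone 3. Scnn1a had -0.34 ± 0.55 (interval -1.62 to 0.95), Scnn1g -0.36 ± 0.93 (interval -2.52 to 1.80) and Aqp3 0.22 ± 0.84 (interval -1.74 to 2.17). Without a clone these also moved, Scnn1g to -2.14 (without Wdr34 clone 3) or 0.17 (without G7), Scnn1a to 0.14 (without H12) and Aqp3 to -0.14 (without G7) or 0.68 (without D8). Slc14a2 had -1.57 ± 2.07 (interval -6.38 to 3.25) and 2.19 without control D8. Each of these intervals reaches beyond 1 log2 unit in at least 1 direction, so the data do not show that the groups were alike. Without both G7 and Wdr34 clone 3, an alternative chosen after seeing the data, 0 transport genes were called as well. In exact 2-sided permutation tests of the clone means, not adjusted, p ranged from 0.171 (Avpr2) to 1, where 35 splits allow no value below 0.0571. No transport gene had clone means without overlap between the groups, which 2.10% of all genes tested had. That share covers genes that passed the filter, as only 6 of the transport genes did.

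The same question was asked of nonciliated cells with 2 mutant and 4 control clones. Aqp1, Aqp3, Scnn1a and Atp1b1 could be tested and none was called (edgeR, 13406 genes, 0 of the 4 with an unadjusted p under 0.05). Over all genes 0% were called (0 genes, with 582 or 4.34% at an unadjusted p under 0.05, and 53 called by DESeq2 on clone sums). The log2 fold change of Aqp1 was -2.71 ± 1.37 (SE, 95% interval -5.99 to 0.56, edgeR adjusted p = 0.976), with both mutants inside the wide range of the controls. Aqp3 had 1.55 ± 0.82 (interval -0.42 to 3.51, edgeR adjusted p = 0.976), carried by Wdr60, and -0.32 without it. Scnn1a had -0.41 ± 0.51 (interval -1.63 to 0.80). Atp1b1 was the best measured, at -0.17 ± 0.16 (interval -0.55 to 0.21). Avpr2 had 0 counts in both mutants and 11 in the controls. This was the only transport gene whose clone means did not overlap, and its exact 2-sided permutation p of 0.133 is the smallest that 15 splits allow. Of all genes tested, 13.1% did not overlap, but Avpr2 did not pass the filter and is not among them. Control AB had 5 counts of Avpr2, and each of the other controls had 2, below the limit of detection. At a limit of 3 counts per clone both groups were, in mean CPM, too low for a fold change. The difference of the mutant effect between the states was not called for any of 6 transport genes (edgeR, 13994 genes, 0 or 0% called, 136 or 0.972% at an unadjusted p under 0.05, and 1 called by DESeq2 on clone sums). It was 4.77 ± 2.46 for Aqp1 (log2, 95% interval -0.60 to 10.1, edgeR adjusted p = 0.9999) and 0.73 ± 0.68 for Atp1b1 (interval -0.76 to 2.22). The Aqp1 difference turned on Wdr34 clone 3. Without that clone the ciliated value of Aqp1, given above, was negative like the nonciliated one.

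**Figure D4:**
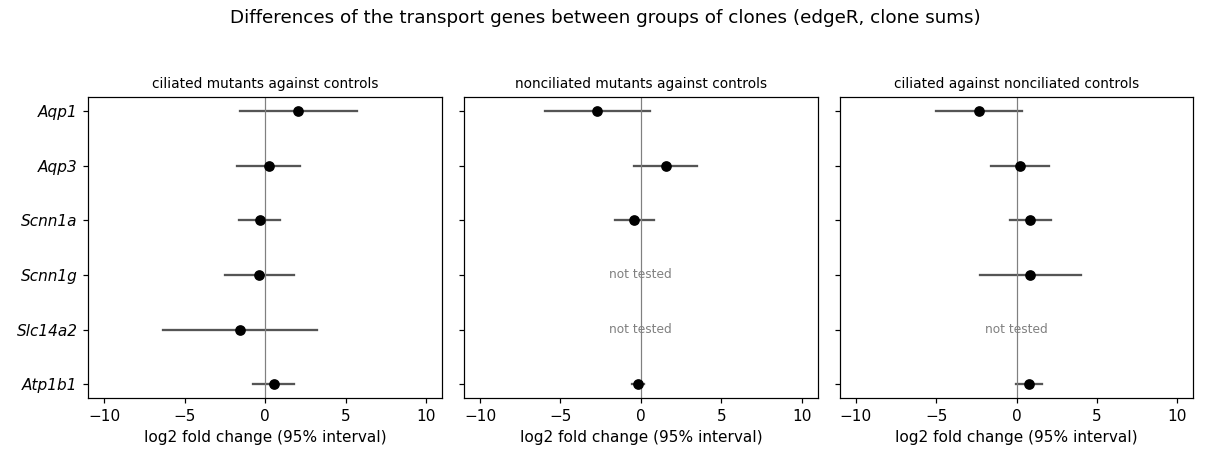
Log2 fold changes (points) with 95% intervals (lines) of 6 transport genes in 3 comparisons of clones by edgeR. The intervals include 0 in each case, the widest being that of Slc14a2 in ciliated mutants (-6.38 to 3.25) and the narrowest that of Atp1b1 in nonciliated mutants (-0.55 to 0.21).

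Ciliated and nonciliated controls, 4 clones each, were compared to describe the transport genes by state. They were treated as independent, although the same clones may stand in both states. Of 13119 genes tested, 1764 or 13.4% were called (802 higher in ciliated cells and 962 lower), and 0 of the 5 transport genes tested were among them. The count of all genes called was 796 without control AB, 288 without control 1, 440 without control 3, 649 without H12 and 638 without A4. Nor did any of these 5 have an unadjusted p under 0.05, which 4213 or 32.1% of all genes had, and DESeq2 on clone sums called 0 as well. Atp1b1 came nearest, with a mean of 344 ± 211 CPM in ciliated and 194 ± 23.5 CPM in nonciliated controls (SD, n = 4 clones) and a log2 fold change of 0.79 ± 0.35 (95% interval -0.02 to 1.59, edgeR adjusted p = 0.165, exact permutation p = 0.114). It passed in a limma voomLmFit of libraries with the clone as a block (0.65, adjusted p = 0.0112), and without G7 the edgeR fold change was 0.29. A fit of all 13 clones with a genotype term, in which the mutants also enter the state effect, gave 1.06 (edgeR adjusted p = 0.0268). H12, at 187 CPM, lay among the nonciliated controls. The clone means of all 10 transport genes overlapped between the states, while those of 22.0% of all genes tested did not. That share covers genes that passed the filter, as 5 of the 10 did. Genes at or near 0 counts in both groups, such as Aqp2, overlap by ties. Scnn1a had 0.86 ± 0.55 (interval -0.40 to 2.12, edgeR adjusted p = 0.319), Aqp3 0.22 ± 0.78 (interval -1.58 to 2.01) and Aqp1 -2.33 ± 1.17 (interval -5.01 to 0.35, edgeR adjusted p = 0.209). The Aqp1 value rested on the nonciliated controls 2 and 3, at 17.3 and 28.6 CPM. The controls AB and 1 were at 0.926 and 2.95 CPM.

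The values of Scnn1g and Slc14a2 in this comparison also turned on individual clones. Scnn1g had a log2 fold change of 0.85 ± 1.37 (95% interval -2.28 to 3.98, edgeR adjusted p = 0.708). Without the nonciliated control 2 it was 4.15 (edgeR adjusted p = 0.0444) and was called, and without both G7 and control 2 it was 3.62 (edgeR adjusted p = 0.0461), an alternative chosen after seeing the data. In both of these fits Scnn1g passed the filter through the ciliated controls alone, so no conclusion is drawn from the calls. Over all leave-outs of a clone the fold change of Scnn1g ranged from 0.32 to 4.15. All 4 ciliated controls, at 0.249 CPM or more, were above the controls AB, 1 and 3, at 0.0965 CPM or less, and only control 2 overlapped them. Slc14a2 did not pass the filter on these 8 clones. In the fit of all 13 clones with a genotype term, which includes the mutants, it did, and its state effect was called by edgeR. It passed there through ciliated clones alone, so no conclusion is drawn from that call. Slc14a2 had 313 counts in ciliated and 0 in nonciliated controls, at least 29.7-fold higher in mean CPM with the limit of 3 counts set in each nonciliated clone. Without D8 there were 20 counts, and the bound fell to 2.35-fold. G7, at 0 counts, overlapped the nonciliated controls, and the exact 2-sided permutation p was 0.143, where the smallest possible is 0.0286.

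Genes that act with the transport genes were counted over lists. In both comparisons of mutants with controls, 0 genes of any list were called by edgeR, as was true of all genes. Between ciliated and nonciliated controls, against 6.11% of all genes called higher and 7.33% called lower, the list of aldosterone and ENaC control had 0 of 17 tested genes called, with a median log2 fold change of 0.50 beside 0.01 over all genes and 8 at an unadjusted p under 0.05, beside 32.1% of all genes. Nr3c2, the mineralocorticoid receptor, was at 13.7 ± 8.36 CPM in ciliated and 4.96 ± 1.5 CPM in nonciliated controls (SD, n = 4 clones; log2 1.42 ± 0.43, edgeR adjusted p = 0.0628). Hsd11b2, which shields that receptor from glucocorticoids, was at 3.74 ± 3.09 and 0.880 ± 0.520 CPM (log2 2.07 ± 0.74, edgeR adjusted p = 0.0935). Sgk1, an aldosterone-induced kinase, had -1.05 ± 0.95 (log2, edgeR adjusted p = 0.484) and spanned 8.47 to 168 CPM over the 13 clones. Its value turned on the highest ciliated control, at 140 CPM beside a median of 19.2 CPM over the ciliated controls. Nedd4l, the ubiquitin ligase that removes ENaC from the membrane, had 0.04 ± 0.27. Prss8, a protease that activates ENaC, had 1.45 ± 0.89 (edgeR adjusted p = 0.299) and was lowest in control 2 (1.41 CPM) and G7 (5.71 CPM), the reverse of Scnn1g.

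The list of vasopressin and cAMP signalling had 22 genes tested, 2 called higher and 1 called lower in ciliated controls, a share near the 13.4% of all genes called, with a median log2 fold change of 0.51. Vamp2, a vesicle protein of AQP2 exocytosis, was at 65.7 ± 10.7 CPM in ciliated and 32.2 ± 7.39 CPM in nonciliated controls (SD, n = 4 clones; log2 1.01 ± 0.19, edgeR adjusted p = 0.0169). Adcy6, the main adenylyl cyclase of principal cells, was at 241 ± 38.0 and 148 ± 18.1 CPM (log2 0.68 ± 0.15, edgeR adjusted p = 0.0233). Creb1, the transcription factor that protein kinase A activates, fell to 71.4 ± 8.72 from 99.96 ± 7.63 CPM (log2 -0.53 ± 0.13, edgeR adjusted p = 0.0382). Gnas, the stimulatory G protein, had -0.17 ± 0.17 (log2, edgeR adjusted p = 0.520). RNA of these signalling genes was thus counted in the controls of both states, in which Avpr2 and Aqp2 were at or near 0.

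The counts called in the following lists are small and stand beside 13.4% of all genes called. Of 7 sodium pump genes tested in this comparison, Atp1b2 was higher in ciliated controls, at 2.52 ± 0.962 against 0.471 ± 0.206 CPM (SD, n = 4 clones; log2 2.40 ± 0.47, edgeR adjusted p = 0.0179), while Atp1b3 had 0.08 ± 0.27 (edgeR adjusted p = 0.862). Of 6 tonicity genes, Nfat5, the transcription factor of the response to hypertonicity, was higher, at 621 ± 134 against 290 ± 68.9 CPM (log2 1.05 ± 0.23, edgeR adjusted p = 0.0249). Of 13 collecting duct markers tested, Tfcp2l1 was higher (log2 0.82 ± 0.20, edgeR adjusted p = 0.0307) and Gata2 lower (log2 -2.38 ± 0.47, edgeR adjusted p = 0.0183). None of 3 other aquaporins and 0 of 5 urea, potassium and chloride transport genes were called. Slc14a1, the other urea transporter gene, had -0.04 ± 1.62 and Kcnj1, the potassium channel of principal cells, had no count in any library. The Slc14a1 value rested on the highest clone of each group. These were at 2.76 CPM (ciliated) and 2.58 CPM (nonciliated), beside medians of 0.119 and 0.203 CPM. Among the markers of other cell types, Cubn was lower, at 3.17 ± 0.284 against 16.9 ± 4.28 CPM, and Csf1r higher, at 229 ± 63.6 against 36.1 ± 14.4 CPM. The other tested members of these lists were not called, with log2 values of 0.26 for Lrp2, -0.63 for Cd68 and -1.56 for Ptprc. The Lrp2 value turned on G7 and control 2, its highest clones. The median of Lrp2 over clones was lower in ciliated controls, at 25.5 against 61.0 CPM. Cubn and Csf1r were also the only listed genes that stayed called whichever of the 8 clones was left out. Atp1b2 was called in 5, Vamp2 and Gata2 in 6, Nfat5 in 4, Adcy6 in 3, and Creb1 and Tfcp2l1 in 2 of these 8 fits, always in the same direction, and all 9 genes were called without G7 and control 2. The part of serum and sequencing time in these differences cannot be told apart from that of ciliation.

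The genes whose levels followed a transport gene most closely over the 13 clones, after the mean of each state was subtracted, were named for Aqp1 and Atp1b1, which averaged at least 5 CPM. Among 10304 genes, Tmem143 (r = 0.91), H19 (r = 0.89) and Taok3 (r = 0.89) were most like Aqp1. H19, an imprinted noncoding RNA, ranged from 0.0132 to 86.1 CPM, and Tmem143 only from 7.87 to 19.1 CPM. Chchd10 (r = 0.93), Atp5b (r = 0.92) and Mdfic (r = 0.92) were most like Atp1b1. Chchd10, a mitochondrial protein gene, ranged from 24.8 to 218 CPM, and Atp5b, a subunit of the mitochondrial ATP synthase, from 866 to 1967 CPM. These are the highest of many correlations over the same 13 clones, and they were not recomputed without single clones.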

How the data were processed

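Per the authors, alignment used Rsubread v1.28.1 (R v3.4.4) against the GRCm38/mm10 build, and featureCounts assigned reads to gene symbols. The files hold the deposited raw counts, not normalized. The sources used here do not give the strand setting or the treatment of multi-mapping reads. Counts of the 4 technical libraries of a clone were summed, so that the clone was the sample, and tested with edgeR 4.0.16 (R 4.3.3; filterByExpr, TMM, glmQLFit and glmQLFTest, 2-sided, Benjamini-Hochberg over all genes tested, called at an adjusted p under 0.05). Where libraries themselves are the samples, p-values are too small for statements on genotype. Levels are CPM scaled by TMM over 52 libraries, with a pseudocount of 0.5 on the log2 scale. DESeq2 1.42.0 and limma 3.58.1 served as alternatives, together with other filters, scalings and leave-outs. The scripts were tested on simulated data. The transport genes and the lists were chosen with earlier results of these data known. All 10 transport genes were named. In the other lists, up to 3 called genes per list and comparison and 13 regulators were chosen to be named; 2 listed genes are not reported here. Of 78 pairs of libraries from a clone, 0 were identical, and all differed by more than sampling noise (chi-square per degree of freedom 1.99 to 104). Library totals of 14816218 to 28084979 counts set the precision.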

Additional observations from a re-analysis of the deposited data

Results flagged for a closer look

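Of 46 sets of 4 values of transport genes, 4 had a highest or lowest value far from the other 3. The rule flags about 1 in 20 sets of unselected, normally distributed values. Sets of clones were examined only where a clone reached 1 CPM. For Slc14a2 and Scnn1g below, only the flagged clone did so. That rate therefore does not apply to them, and no excess over chance is claimed. Slc14a2 in the ciliated controls stood at 4.57 CPM in D8, against 0.211 CPM or less in the other 3 clones, and all 4 libraries of D8 were high. Scnn1g in the nonciliated controls stood at 1.37 CPM in control 2, against 0.0965 CPM or less in the other 3 clones, and control 2 was also the clone lowest in Cdh1 (4.27 CPM). The remaining pair concerned single libraries of a clone. Atp1b1 was at 210 CPM in the library of replicate 1 of control H12, above the other 3 libraries of that clone. Scnn1a was at 0.773 CPM in the library of replicate 4 of nonciliated control 2, below the other 3. What set these values apart was not tested.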

How the results depend on the processing

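With the clone as the sample, no transport gene passed the test for a mutant effect under another scaling, stricter or looser filters, DESeq2, the voomLmFit block or any leave-out. With libraries as samples, whose p-values reflect technical spread, genes called for ciliated mutants were 379 (edgeR) and 692 (DESeq2), for nonciliated mutants 1803 and 2264 (each with 1 transport gene, Aqp1), for the difference between states 237 (1, Aqp1) and 388 (2, Aqp1 and Scnn1g), and for ciliated against nonciliated controls 7221 and 7358 (each with 3, Aqp1, Scnn1a and Atp1b1). With the replicate block as well these were 236, 1393 (1), 168 (1) and 7003 (3), but the numbers do not pair the libraries: same-numbered libraries of different clones had mean correlations of 0.0310 (ciliated) and 0.00848 (nonciliated), and 7 of 28 and 8 of 24 were closest to their own number. DESeq2 on clone sums called 3, 53, 1 and 3260 genes, in the same order. The voomLmFit with the clone as a block called 7 and 9 genes for the mutants and 3102 for the controls (1 transport gene, Atp1b1).

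For the 1764 genes called between the controls, a log2 fold change of at least 1 left 660, and a fit of all 13 clones with a genotype term, whose state effect includes the mutants, gave 5383 (2 transport genes, Atp1b1 and Slc14a2) and turned Aqp3 to -0.29. Slc14a2 passed the filter of that fit through ciliated clones alone. Leaving out a clone gave 288 to 2206 genes and 0 or 1 transport genes (Scnn1g, without control 2). Without G7 and control 2, chosen after seeing the data, 2756 genes and 1 transport gene (Scnn1g) were called. Wherever control 2 was left out, Scnn1g passed the filter through the ciliated controls alone. Without G7 and Wdr34 clone 3, also chosen after seeing the data, the ciliated mutant values of Aqp1 and Aqp3 turned to -1.76 and -0.41.

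Leaving out a clone or a replicate number turned the sign of uncalled log2 fold changes. In ciliated mutants Aqp1 ranged from -2.11 to 2.63, Aqp3 from -0.29 to 0.68, Atp1b1 from -0.20 to 1.05, Scnn1a from -0.63 to 0.14, Scnn1g from -2.14 to 0.17 and Slc14a2 from -2.62 to 2.19. In nonciliated mutants Aqp3 ranged from -0.32 to 2.33, and between controls from -0.21 to 0.61. In the difference between states Aqp3 ranged from -2.13 to 0.53, Atp1b1 from -0.0197 to 1.23 and Scnn1a from -0.20 to 0.56. The causes of these shifts were not tested. Aqp2, Aqp4, Avpr2 and Scnn1b did not pass the filter of the edgeR tests reported above, and 2 to 4 clones per group limit the rest.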
